A study of Mus musculus with 6 samples.

Results

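The genes described here encode the machinery that brings proteins into mitochondria, measured in ventricular tissue of mice with an activated Akt kinase in the heart. Members were the probe sets whose only gene symbol in the platform annotation begins with Timm or Tomm and a digit, or is one of 11 further named symbols such as Samm50, Chchd4, Grpel1 or Pmpca. The rule gave 66 probe sets of 33 genes, out of 34945 single-symbol probe sets of 18193 genes, and each gene was read at its probe set with the highest mean over the 6 arrays. Dnajc19, the remaining symbol of the rule, had no value because its 3 probe sets also carry a pseudogene symbol, and for the same reason Tomm5 and Tomm6 were not analysed. The tested hearts were those of 3 samples with cardiac-specific constitutive expression of caAkt, an activated Akt, and they were set against 3 wild-type samples. All mice were 8 weeks old. The labels used here give neither the promoter of the transgene, nor the strain or sex, nor whether each array was 1 heart, so the p-values rest on the spread among these arrays, part or all of which may be technical. The study used the arrays to describe gene expression in this transgenic model, in which heart failure develops.

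Nearly all mitochondrial proteins are made in the cytosol and carried across 1 or both mitochondrial membranes. The TOM complex of the outer membrane receives the precursors, the SAM complex inserts barrel-shaped outer membrane proteins, and the MIA relay folds small proteins of the intermembrane space through disulfide bonds. Small TIM chaperones guide membrane proteins between the membranes, TIM22 inserts metabolite carriers into the inner membrane, and TIM23 with its PAM motor draws presequence proteins into the matrix, where a processing peptidase removes the presequence. Heart muscle is dense in mitochondria and depends on this supply.

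The arrays were close to each other in distribution, with medians of 6.77 to 6.80 on the log2 scale of the deposited values. The transgene was visible at 1 of 4 Akt1 probe sets, which read 15.08 to 15.16 on the caAkt arrays and 9.79 to 10.18 on the wild-type arrays. All 10 cardiomyocyte markers were bright in both groups, with a lowest group mean of 12.69. Markers of other cells moved with genotype: 7 of 8 macrophage genes and 7 of 8 fibroblast genes were higher in caAkt hearts, with median log2 fold changes of 1.31 and 1.19. The log2 of the summed signals was 14.49 to 14.77 on caAkt and 12.90 to 13.19 on wild-type arrays for the macrophage list, and 16.30 to 16.45 against 14.82 to 15.15 for the fibroblast list. For the 6 endothelial genes it was 12.52 to 12.68 on caAkt and 12.85 to 12.91 on wild-type arrays, and for the 4 smooth muscle genes 12.53 to 13.39 and 12.87 to 13.06. The summed atrial markers Sln, Myl7 and Myl4 spread widely within each genotype, over 10.35 to 12.07 on caAkt and 9.93 to 12.88 on wild-type arrays, and the groups overlapped. Cd163, the remaining macrophage gene, was lower, with the lowest mean of that list at 6.30 in caAkt and 6.78 in wild-type hearts. In whole tissue, fewer cardiomyocytes and less of an RNA per cardiomyocyte cannot be told apart.

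Import genes were lower in caAkt hearts at 9 of 33 members and higher at 1, and most members showed small differences. Among all 18193 genes, 12.4% were called lower and 16.1% higher under the same test (limma, adjusted p under 0.05 over all genes), against 27.3% and 3.03% of the members. The members that fell were Timm21, Timm8b, Samm50, Pmpca, Timm23, Grpel1, Mtx1, Timm8a1 and Tomm20l, and the one that rose was Timm22. Folds were modest, from 1.21 to 1.57. The median log2 fold change (caAkt minus wild-type) was -0.08 over the members and -0.04 over all genes. It was -0.15 over the 26 members measured by plain probe sets and -0.14 after a repeated quantile normalization, where the median of all genes stayed at -0.04. At an unadjusted p under 0.05 in the same fit, 12 members were lower and 2 higher, beside 3476 lower and 3680 higher of all 18193 genes.

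The 3 values of one genotype lay wholly above or below those of the other at 17 members (51.5%), 11 lower and 6 higher in caAkt, beside 42.4% of all genes. Of the members, 31 had a mean above the median of all probe set values (6.78), the exceptions being Tomm20l and Timm8a2. With only such brighter genes in the fit, 8 of 31 members were lower and 1 was higher, where the share of all 11545 genes tested was 18.0% lower and 24.3% higher. The cardiomyocyte markers fell at 4 of 10 (Tnni3, Pln, Myl3 and Ryr2), with a median log2 fold change of -0.17 and summed signals of 18.18 to 18.20 on caAkt and 18.23 to 18.37 on wild-type arrays. The part of these shifts in cell markers in the results of the import genes was not tested. Wild-type replicate 3 was the lowest wild-type array for 22 of 33 members (66.7%), compared with 42.4% of all genes. Leaving it out gave 8 lower and 1 higher member, beside 2222 lower and 2605 higher of all 18193 genes.

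**Figure D1:**
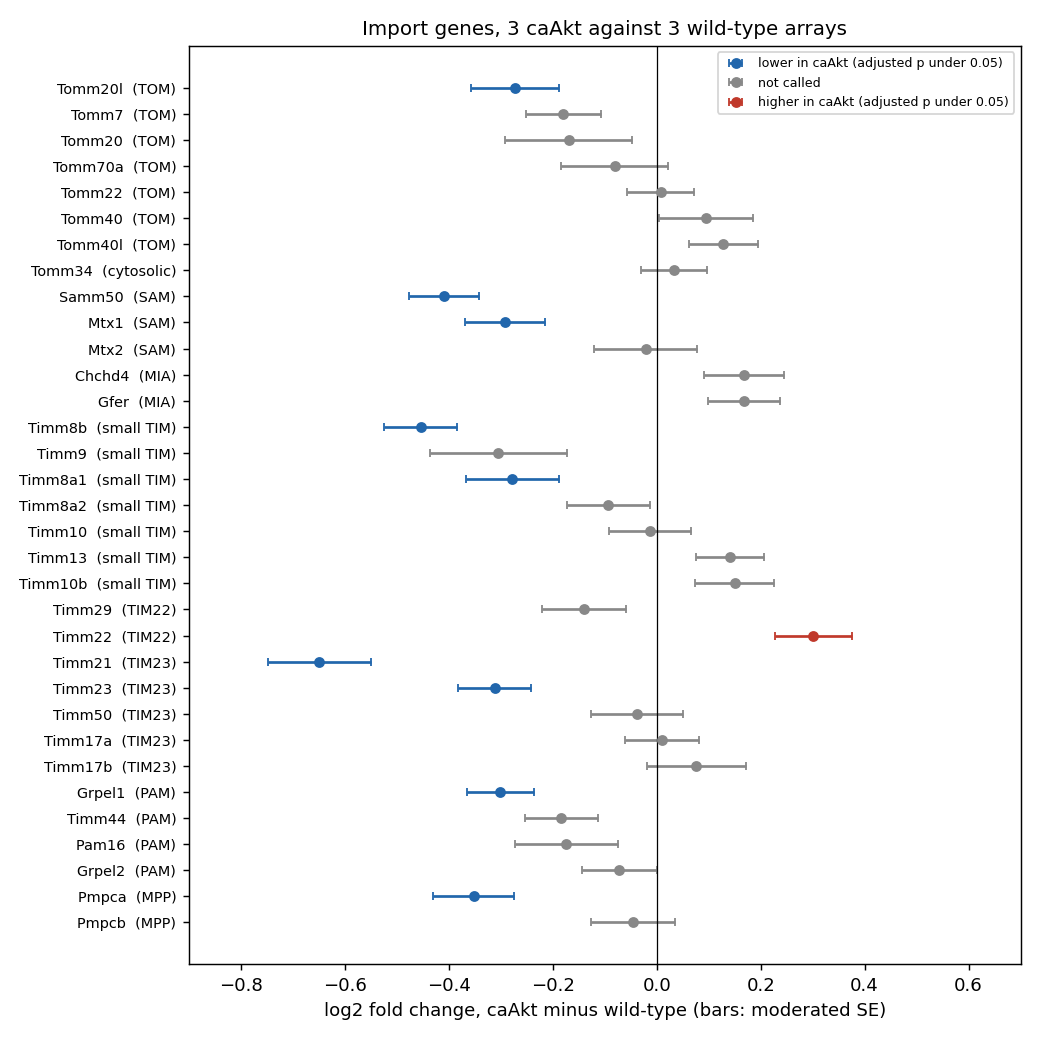
Log2 fold change of each of the 33 import genes (x axis, caAkt minus wild-type, bars are moderated standard errors), grouped by complex from the outer membrane at the top to the matrix peptidase at the bottom. Blue marks the 9 genes called lower, red the 1 called higher (Timm22) and grey the 23 not called, and Timm21 lies farthest from 0 at -0.65.

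The presequence translocase TIM23 held the largest change of the machinery. Timm21, a subunit of TIM23 that contacts the TOM complex and in human cells also works in respiratory chain assembly, stood at 9.79, 9.74 and 9.68 on the caAkt arrays and at 10.61, 10.30 and 10.25 on the wild-type arrays. Every caAkt value was below every wild-type value, and the wild-type arrays were the more scattered, with replicate 1 the highest. The log2 fold change was -0.65 ± 0.10 (SE, n = 3 each, adjusted p = 0.00112), a 1.57-fold difference, and it stayed between -0.72 and -0.54 when single arrays were left out. Timm23, the channel of the inner membrane, read 12.57, 12.55 and 12.61 in caAkt hearts and 12.98, 12.88 and 12.81 in wild-type hearts. The groups did not overlap, and the log2 fold change was -0.31 ± 0.07 (adjusted p = 0.00941). The other subunits did not pass the test. The channel partner Timm17a read 12.36, 12.26 and 12.36 in caAkt hearts and 12.36, 12.37 and 12.23 in wild-type hearts (0.01 ± 0.07, adjusted p = 0.933). Its paralog Timm17b read 9.87, 9.66 and 9.69 in caAkt hearts and 9.81, 9.67 and 9.51 in wild-type hearts (0.08 ± 0.10, adjusted p = 0.590), with 0.02 at a second probe set. The values of both paralogs overlapped between the genotypes. Timm50, the receptor that passes presequences to the channel, differed by -0.04 ± 0.09 (adjusted p = 0.783), and by -0.17 and -0.15 at 2 dimmer probe sets.

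In the import motor PAM, Grpel1 was the only called member of the 4 measured. Grpel1 releases nucleotide from the matrix Hsp70 so that it can bind the incoming chain again. Its values were 11.47, 11.47 and 11.49 on caAkt arrays and 11.80, 11.81 and 11.72 on wild-type arrays, with little scatter in either group and no overlap. This was a log2 fold change of -0.30 ± 0.06 (adjusted p = 0.00748). Its paralog Grpel2 gave -0.07 ± 0.07 (adjusted p = 0.492), with overlapping values of 8.73, 8.73 and 8.67 in caAkt hearts and 8.87, 8.78 and 8.70 in wild-type hearts, and -0.12 at a second probe set. Timm44, which tethers Hsp70 to the channel, averaged 11.52 ± 0.06 in caAkt and 11.71 ± 0.06 in wild-type hearts without overlap and missed the threshold (-0.18 ± 0.07, adjusted p = 0.0829). Its 3 probe sets all pointed down, at -0.18, -0.24 and -0.26, and their mean was called (-0.23, adjusted p = 0.0288). Pam16, a J-like regulator of the motor, had -0.17 ± 0.10 (adjusted p = 0.226), and wild-type replicate 3, at 11.96, lay among the caAkt values of 11.92 to 12.03.

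Of the 2 subunits of the matrix processing peptidase, the one that recognises presequences fell and the catalytic one did not pass the test. Pmpca, the alpha subunit, stood at 10.90, 10.84 and 10.69 in caAkt hearts and at 11.21, 11.18 and 11.10 in wild-type hearts, so that the groups were separate. Its log2 fold change was -0.35 ± 0.08 (adjusted p = 0.00857), and a second probe set gave -0.18 ± 0.08 (adjusted p = 0.136 in the fit of all 34945 single-symbol probe sets). Pmpcb, the beta subunit that cuts, averaged 12.37 ± 0.07 in caAkt and 12.42 ± 0.12 in wild-type hearts (SD, n = 3 each, adjusted p = 0.708), and a second probe set gave -0.11.

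Among the small TIM chaperones, Timm8b and Timm8a1 fell, 2 of 7 measured. Timm8b, close in sequence to the protein whose loss in humans causes deafness-dystonia syndrome, read 11.68, 11.71 and 11.70 on caAkt arrays and 12.18, 12.21 and 12.06 on wild-type arrays. The caAkt values lay within a few hundredths of each other and well below all wild-type values. The log2 fold change was -0.45 ± 0.07 (adjusted p = 0.00116), or 1.37-fold. Timm8a1, the mouse counterpart of the human deafness-dystonia gene, stood at 10.07, 10.07 and 10.06 in caAkt hearts and 10.54, 10.27 and 10.22 in wild-type hearts. The groups did not overlap, but wild-type replicate 1 was set apart from replicates 2 and 3. The call (-0.28 ± 0.09, adjusted p = 0.0468) was lost without any single array other than wild-type replicate 3 (adjusted p 0.0733 to 0.112), and the value was -0.18 without wild-type replicate 1. A second probe set gave -0.12 ± 0.08 (adjusted p = 0.321 among all probe sets), and the mean of both was not called (-0.20, adjusted p = 0.0881).

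Timm13, which forms a hexamer with Timm8a in the intermembrane space, averaged 11.48 ± 0.04 in caAkt and 11.34 ± 0.03 in wild-type hearts, with no overlap and no call (0.14 ± 0.06, adjusted p = 0.140). Timm9 and Timm10 make up the other chaperone hexamer. Timm10 differed by -0.01 ± 0.08 (adjusted p = 0.924). Timm9 had -0.30 ± 0.13 with overlapping values of 7.75 to 8.04 in caAkt and 7.95 to 8.44 in wild-type hearts (adjusted p = 0.119), and -0.18 at a second probe set. Timm10b, which docks the hexamer on TIM22, gave 0.15 ± 0.08 (adjusted p = 0.178), and its other 3 probe sets gave 0.14, 0.03 and -0.07. Timm8a2 averaged 3.87 ± 0.11 in caAkt and 3.97 ± 0.08 in wild-type hearts, and 2.20% of genes had a mean that low or lower, so that no difference could be read from it.

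The carrier translocase was the one place where a member rose. Timm22, its channel-forming subunit, stood at 10.31, 10.21 and 10.15 on caAkt arrays and at 9.99, 9.84 and 9.93 on wild-type arrays. All caAkt values were the higher ones, with a log2 fold change of 0.30 ± 0.07 (adjusted p = 0.0142). Leaving out wild-type replicate 2 ended the call (adjusted p = 0.0630), as did leaving out caAkt replicate 1 (0.0525), and its dimmer probe set gave 0.08 ± 0.09 (adjusted p = 0.544 among all probe sets). Timm29, a metazoan subunit of TIM22, gave -0.14 ± 0.08 (adjusted p = 0.234), and -0.13 at a second probe set.

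In the outer membrane, SAM genes fell at 2 of 3 and TOM genes at 1 of 7. Samm50, the core of the SAM complex that folds barrel proteins such as Tomm40 into the membrane, stood at 12.08, 12.15 and 12.03 in caAkt hearts and at 12.45, 12.50 and 12.53 in wild-type hearts. The genotypes were separated by more than the range within either. Its log2 fold change was -0.41 ± 0.07 (adjusted p = 0.00180), and all 3 of its probe sets were called, at -0.41, -0.52 and -0.37. Mtx1, the metaxin that partners Samm50, read 10.55, 10.76 and 10.58 on caAkt arrays and 10.88, 10.95 and 10.94 on wild-type arrays. The groups were separate although caAkt replicate 2 lay near the wild-type values (-0.29 ± 0.08, adjusted p = 0.0198). It was no longer called after dropping caAkt replicate 1 (adjusted p = 0.0706), caAkt replicate 3 (0.0676) or wild-type replicate 2 (0.0710). Its second probe set was called too (-0.26 ± 0.07, adjusted p = 0.0330 among all probe sets). The other metaxin among the members, Mtx2, read 11.86, 11.56 and 11.75 in caAkt hearts and 11.88, 11.76 and 11.60 in wild-type hearts, with overlap (-0.02 ± 0.10, adjusted p = 0.895).

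**Figure D2:**
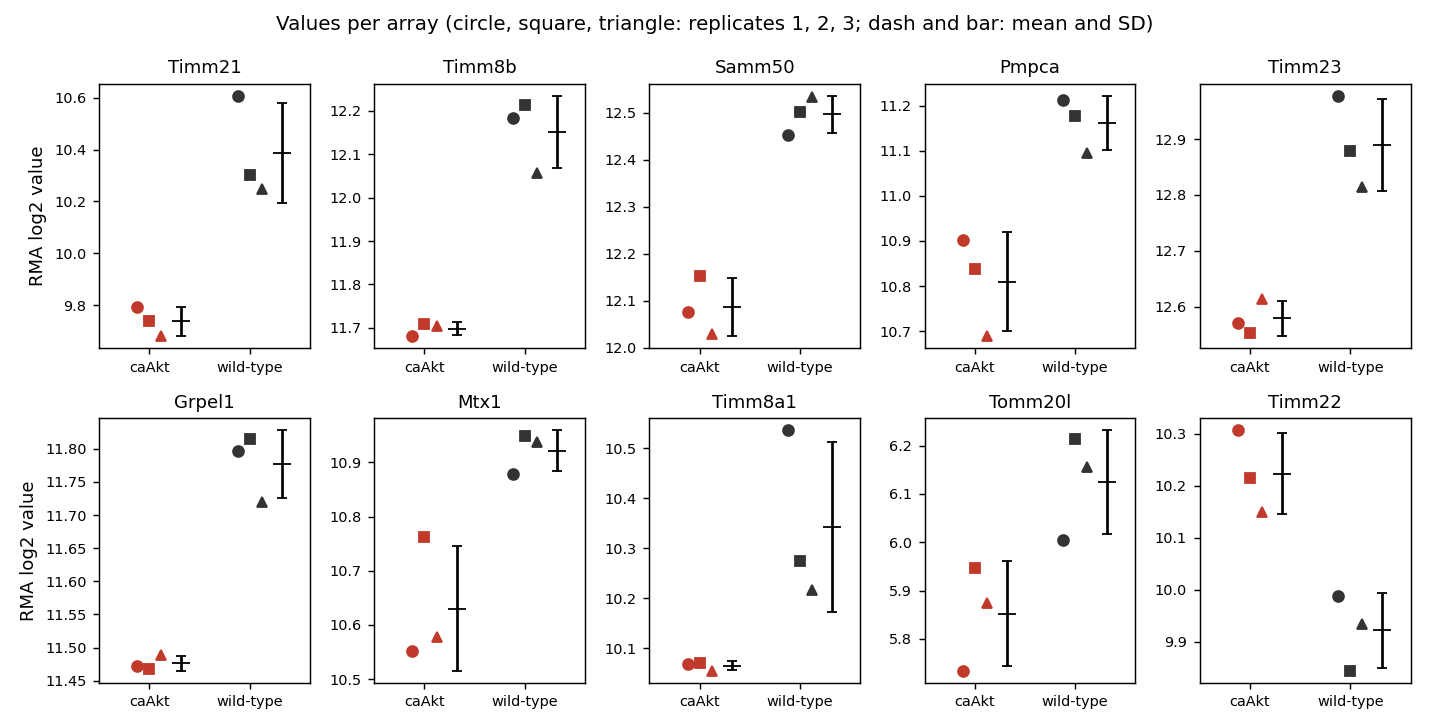
RMA log2 values (y axis, a separate scale in each panel) of the 10 called members on the 3 caAkt arrays (red, left) and the 3 wild-type arrays (black, right), with mean and SD beside them. In each panel the genotypes do not overlap; Timm21 falls by 0.65 on the log2 scale, Tomm20l sits near 6 and only Timm22 is higher in caAkt.

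Within the TOM complex, the receptors and the channel did not pass the test. Tomm20, the receptor for presequences, had values of 12.77, 12.64 and 12.91 in caAkt hearts and 13.13, 13.03 and 12.67 in wild-type hearts, which overlapped because of wild-type replicate 3. Its log2 fold change was -0.17 ± 0.12 (adjusted p = 0.340), and -0.30 without that array (adjusted p = 0.0510). The other 5 probe sets lay between -0.25 and 0.07, none of them called. Tomm22, the central receptor that also organises the complex, averaged 10.87 ± 0.01 in caAkt and 10.86 ± 0.05 in wild-type hearts (0.01 ± 0.06, adjusted p = 0.946), and a second probe set gave -0.08. Tomm40, the pore through which precursors pass, read 10.56, 10.60 and 10.47 in caAkt hearts and 10.33, 10.38 and 10.63 in wild-type hearts, which overlapped through wild-type replicate 3 (0.09 ± 0.09, adjusted p = 0.467). Tomm7, a small subunit that modulates the stability of the complex, was lower on every caAkt array (11.04 to 11.21) than on any wild-type array (11.24 to 11.35) and was not called (-0.18 ± 0.07, adjusted p = 0.0992). Its 4 probe sets lay close together, between -0.20 and -0.18. Tomm34, a cytosolic cochaperone of precursors, gave 0.03 ± 0.06 (adjusted p = 0.735).

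The only called TOM gene, Tomm20l, is a paralog of Tomm20 and was dim, at 5.73, 5.95 and 5.88 on caAkt arrays and 6.01, 6.21 and 6.16 on wild-type arrays. These values are below the median of all probe sets, and its call (-0.27 ± 0.09, adjusted p = 0.0406) did not survive dropping wild-type replicate 2, wild-type replicate 3, caAkt replicate 1 or caAkt replicate 3 (adjusted p 0.0837 to 0.144).

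For 2 TOM genes the direction depended on the probe set. Tomm40l, a paralog of Tomm40, read 10.36, 10.39 and 10.40 in caAkt hearts and 10.31, 10.19 and 10.27 in wild-type hearts at its brightest probe set (0.13 ± 0.07, adjusted p = 0.187). A dimmer probe set averaged 8.41 ± 0.05 in caAkt and 9.02 ± 0.05 in wild-type hearts, a log2 fold change of -0.61 ± 0.07 (adjusted p = 0.000362 among all probe sets). Tomm70a, the receptor for carriers and other precursors with internal signals, gave -0.08 ± 0.10 at its brightest probe set, while others gave 0.27 ± 0.09 (adjusted p = 0.0615 among all probe sets), 0.25, -0.15 and 0.01. Which transcripts these probe sets cover was not analysed here, and no direction is given for either gene. By its brightest probe set alone, Tomm40l is counted among the 6 non-overlapping higher members and enters the comparison of paralogs. Of the 19 members with several probe sets, the 5 with a called brightest probe set had every other probe set on the same side of 0.

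**Figure D3:**
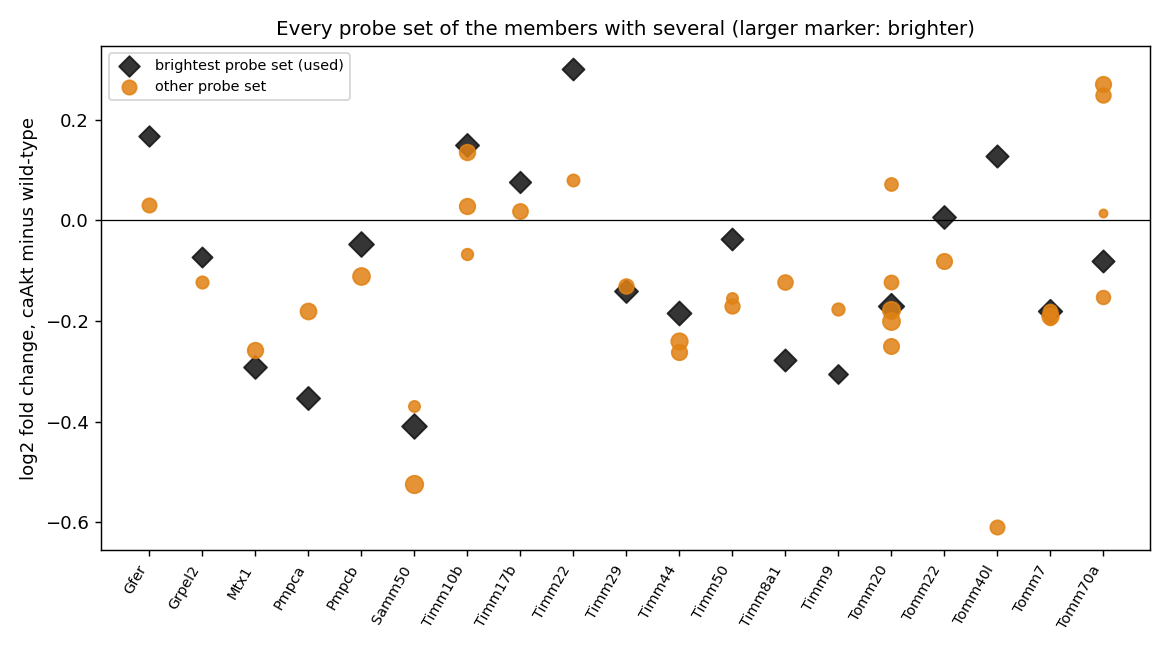
Log2 fold change (y axis, caAkt minus wild-type) at each probe set of the 19 import genes with more than 1 (x axis), with the brightest as a black diamond and the others as orange circles sized by brightness. The 3 Samm50 and 4 Tomm7 probe sets all lie below 0, whereas those of Tomm40l spread from -0.61 to 0.13 and those of Tomm70a from -0.15 to 0.27.

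The MIA relay showed small differences that missed the threshold. Chchd4, the oxidoreductase that introduces disulfide bonds into incoming proteins, stood at 10.92, 10.91 and 11.10 in caAkt hearts and at 10.82, 10.86 and 10.74 in wild-type hearts. Gfer, the sulfhydryl oxidase that reoxidises it, stood at 9.18, 9.17 and 9.08 in caAkt hearts and at 8.92, 8.97 and 9.04 in wild-type hearts. Both genes were higher on every caAkt array than on any wild-type array, at 0.17 ± 0.08 (adjusted p = 0.141) and 0.17 ± 0.07 (adjusted p = 0.103). A second Gfer probe set gave 0.03 ± 0.07 (adjusted p = 0.787 among all probe sets).

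Paired paralogs were compared through the difference of their log2 values on each array, with an exact permutation test whose smallest two-sided p is 0.1 for 3 against 3 arrays. For Grpel1 minus Grpel2 the change (caAkt minus wild-type) was -0.23 ± 0.04 (SE, exact p = 0.1, adjusted p = 0.6 over 6 pairs), and the genotypes did not overlap. For Timm8a1 minus Timm8b the change was 0.18 ± 0.09 (exact p = 0.2), and for Mtx1 minus Mtx2 it was -0.27 ± 0.18 (exact p = 0.3). The Mtx1 and Mtx2 value was -0.16 without caAkt replicate 1 and -0.42 without caAkt replicate 2, and that of Timm8a1 and Timm8b was 0.11 without wild-type replicate 2. Timm17a minus Timm17b gave -0.07 ± 0.07 (exact p = 0.5), Tomm20 minus Tomm20l 0.10 ± 0.21 (exact p = 0.7) and Tomm40 minus Tomm40l -0.03 ± 0.11 (exact p = 0.9). The adjusted values of these 5 pairs were 0.6 to 0.9, so that a different response of paralogs was not shown for any pair at this sample size.

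Promoter sequence from RefSeq (GRCm38.p6) was at hand for 29 of the 33 members, in 31 windows of 250 bases before to 50 after a gene's start. The windows were rich in G and C, with a median of 60% beside 52.7% over all 32851 windows, and held a median of 20 CG pairs beside 7. The letters TATAAA in the 250 bases before the start, on the gene's strand, occurred in 0 of the 31 and in 7.59% of all windows. Letters of 5 motifs that bind factors of mitochondrial or growth genes were searched on both strands. The ETS core CCGGAAGT, bound by GABP among others, was found in 8 member windows (25.8%) and in 3.89% of all windows. The E-box CACGTG was found in 5 (16.1%, against 7.15% of all), the ERR element AAGGTCA in 3 (9.68%, against 4.72%), the NRF1 half-site GCATGCGC in 2 (6.45%, against 2.71%) and the YY1 element AAGATGGCG in 2 (6.45%, against 1.40%). No overlap between matches of different motifs was removed, and a match is a string of letters and not a shown binding site. Of the 8 members called lower that have a window, 1 held the ETS letters, 2 the ERR, 2 the E-box, 1 the NRF1 and 1 the YY1 letters.

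To show what lies upstream of the members whose fall held without any single array, the 150 bases before the start are given for those with a window, 5' to 3' on the gene's strand, with motif matches in capitals.
Timm8b, chr9:50603751-50603900, plus strand: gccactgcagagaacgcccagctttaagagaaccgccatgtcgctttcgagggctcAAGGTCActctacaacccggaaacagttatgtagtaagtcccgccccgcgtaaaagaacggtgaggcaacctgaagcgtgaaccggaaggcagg
Samm50, chr15:84192090-84192239, plus strand: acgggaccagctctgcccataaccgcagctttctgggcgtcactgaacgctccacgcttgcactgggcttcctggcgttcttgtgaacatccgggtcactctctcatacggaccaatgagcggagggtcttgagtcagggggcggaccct
Timm23, chr14:32201892-32202041, minus strand: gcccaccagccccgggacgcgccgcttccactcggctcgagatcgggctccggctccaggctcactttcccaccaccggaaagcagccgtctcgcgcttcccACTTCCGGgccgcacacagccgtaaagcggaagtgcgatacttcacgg
Grpel1, chr5:36465035-36465184, plus strand: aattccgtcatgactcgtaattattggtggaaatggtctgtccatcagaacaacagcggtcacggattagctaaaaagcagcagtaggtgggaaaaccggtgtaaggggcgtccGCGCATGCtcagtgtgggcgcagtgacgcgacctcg
Pmpca, chr2:26389198-26389347, plus strand: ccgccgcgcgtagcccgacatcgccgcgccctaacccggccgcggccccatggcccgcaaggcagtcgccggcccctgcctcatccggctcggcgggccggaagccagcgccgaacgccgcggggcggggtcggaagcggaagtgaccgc
The capitals mark the ERR letters starting 94 bases before the start of Timm8b, the ETS letters on the opposite strand 48 bases before that of Timm23, and the NRF1 letters on the opposite strand 36 bases before that of Grpel1. The stretches of Samm50 and Pmpca held none of the 5 motifs. Timm23 also held the ERR letters 14 bases past the start, outside the stretch shown.

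A further list of genes works beside the machinery, of which 21 of 24 were measured as single symbols. In caAkt hearts 10 of them were lower (47.6%, beside 12.4% of all genes) and 4 were higher (16.1% of all genes were), with a median log2 fold change of -0.17. Without caAkt replicate 2, 6 were lower, beside 1770 of all 18193 genes. All 21 were above the cut on dim genes. With only such brighter genes in the fit, 10 of the 21 were lower and 4 higher. In that fit 18.0% of all 11545 genes were lower and 24.3% higher. Of the 4 peptidases measured that act after import, Immp1l, Mipep and Pitrm1 were called lower. Immp1l, which trims proteins sorted to the intermembrane space, stood at 11.17, 11.01 and 11.12 on caAkt arrays and at 12.14, 11.91 and 11.78 on wild-type arrays. The groups were far apart (-0.85 ± 0.10, adjusted p = 0.000233), by 1.80-fold. Mipep, which removes a short peptide after the processing peptidase has cut, averaged 10.06 ± 0.04 in caAkt and 10.71 ± 0.06 in wild-type hearts (-0.65 ± 0.07, adjusted p = 0.000120). The mean of the Mipep probe sets fell less and was called (-0.32, adjusted p = 0.0045). Pitrm1, which degrades freed presequences, had -0.31 ± 0.07 (adjusted p = 0.0101), and the mean of its probe sets was not called (-0.27, adjusted p = 0.159). The other peptidase, Xpnpep3, named here after its value was seen, had 0.24 ± 0.12 (adjusted p = 0.174), and was called higher with array weights (0.38, adjusted p = 0.0340) and without wild-type replicate 3 (0.37, adjusted p = 0.0284).

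Romo1, a small subunit bound to TIM23, averaged 11.29 ± 0.08 in caAkt and 11.77 ± 0.23 in wild-type hearts (-0.48 ± 0.11, adjusted p = 0.0115), and missed the threshold after dropping either caAkt replicate 2 (adjusted p = 0.0524) or wild-type replicate 2 (0.0505). Dnajc15, a J protein of the motor, had -0.38 ± 0.09 (adjusted p = 0.0128; 0.0537 without caAkt replicate 2). The motor's Hsp70 itself, Hspa9, named here after its value was seen, had -0.17 ± 0.08 (adjusted p = 0.154), and was called as the mean of its probe sets (-0.25, adjusted p = 0.0215). The insertase Oxa1l, which places proteins into the inner membrane from the matrix, fell by 0.31 ± 0.08 on the log2 scale (adjusted p = 0.0149; 0.0511 without wild-type replicate 1 and 0.0554 without caAkt replicate 3). Apoo, Chchd3, Apool and Immt belong to the MICOS complex, which shapes cristae and touches TOM and SAM. Apoo gave -0.59 ± 0.11 (adjusted p = 0.00319) and Chchd3 -0.48 ± 0.10 (adjusted p = 0.00565). Immt, the core subunit, likewise named after its value was seen, gave -0.13 ± 0.07 (adjusted p = 0.211). The mean of the Chchd3 probe sets was not called (-0.26, adjusted p = 0.0738). Apool, also named after its value was seen, was called lower (-0.33 ± 0.09, adjusted p = 0.0260). Its adjusted p rose to 0.0985 at most without single arrays, and the mean of its probe sets was not called (-0.13, adjusted p = 0.172).

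The cytosolic chaperones Hsp90aa1 and Hspa8, which deliver precursors to Tomm70, rose. Hsp90aa1 stood at 13.24, 12.88 and 13.13 in caAkt hearts and at 12.24, 12.14 and 11.81 in wild-type hearts, a clear separation. This was a 2.03-fold difference (1.02 ± 0.13, adjusted p = 0.000360). Hspa8 rose by 0.40 ± 0.08 (adjusted p = 0.00333). With plain probe sets alone its value was 0.57 and was not called (adjusted p = 0.285). Mtch1, an outer membrane protein of the carrier family related to an insertase, averaged 11.57 ± 0.08 in caAkt and 10.95 ± 0.17 in wild-type hearts (0.62 ± 0.10, adjusted p = 0.00120). The related gene Mtch2 on the same list, named here after its value was seen, was called lower (-0.30 ± 0.08, adjusted p = 0.0198). Its adjusted p rose to 0.0729 at most without single arrays, and the mean of its probe sets was not called (-0.10, adjusted p = 0.3045). The MICOS subunit Chchd6 rose by 0.26 ± 0.08 (adjusted p = 0.0314) but was no longer called when wild-type replicate 1, wild-type replicate 2, caAkt replicate 1 or caAkt replicate 2 was dropped (adjusted p 0.0720 to 0.0985).

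**Figure D4:**
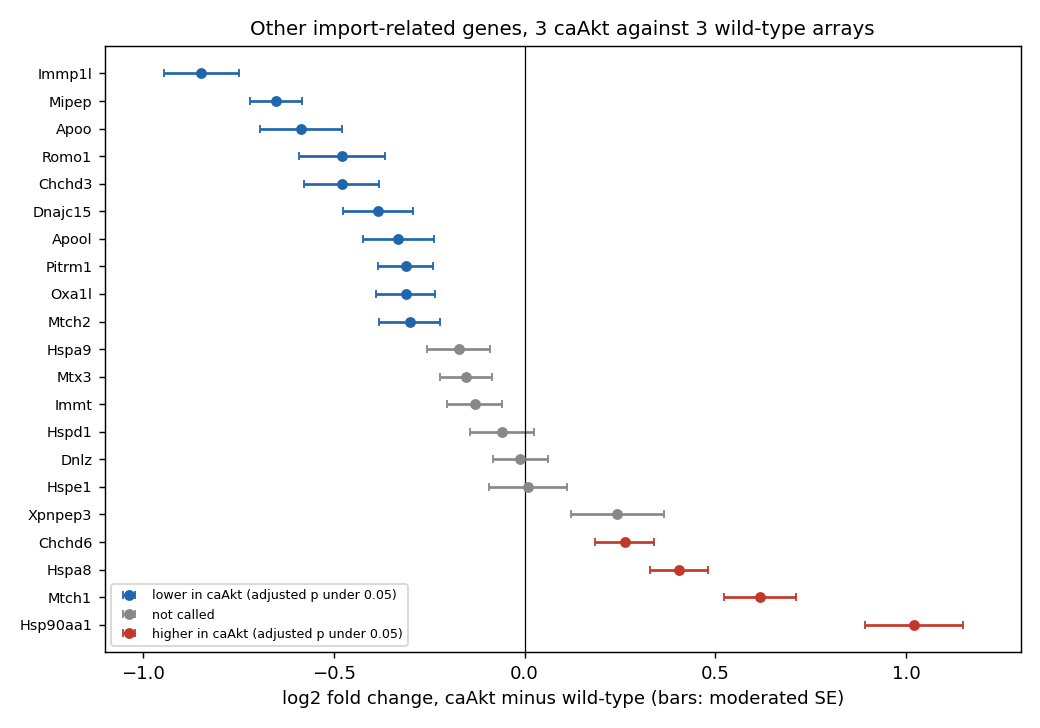
Log2 fold change (x axis, caAkt minus wild-type, bars are moderated standard errors) of the 21 measured genes that work beside the import machinery, from the lowest at the top. The 10 blue genes are called lower, led by Immp1l at -0.85, and the 4 red genes higher, with Hsp90aa1 at 1.02.

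Cargo of the machinery gave a scale for these numbers. Among 44 genes of the Slc25 carrier family, most of whose proteins enter through TIM22, 16 were lower (36.4%) and 6 higher (13.6%) in caAkt hearts. Their median log2 fold change was -0.13. Among 76 mitochondrial ribosomal proteins, which enter the matrix through TIM23, 43 were lower (56.6%) and 1 higher (1.32%), with a median of -0.26. The import genes had 9 lower and 1 higher of 33 and a median of -0.08. Of all genes, 12.4% were lower and 16.1% higher, with a median of -0.04. In the fit of brighter genes only, 18.0% of all genes tested were lower and 24.3% higher. The carriers and ribosomal proteins were not counted in that fit. No test of the difference between these lists was made.

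**Figure D5:**
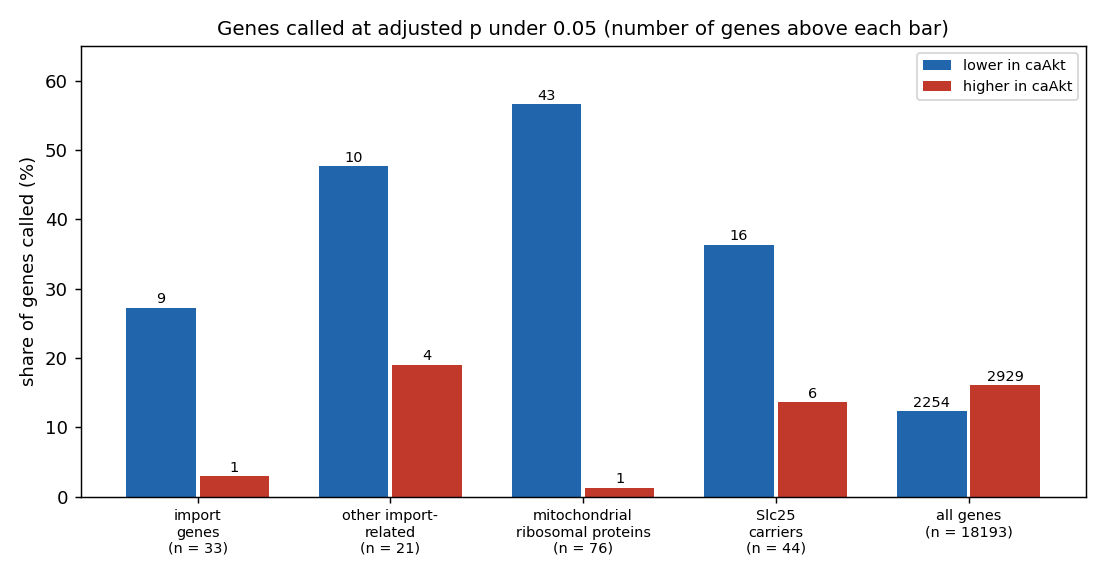
Share of genes (y axis, percent) called lower (blue) or higher (red) in caAkt hearts at an adjusted p under 0.05, for the import genes, the genes that work beside them, the mitochondrial ribosomal proteins, the Slc25 carriers and all genes (x axis, with the number of genes). The import genes show 27.3% lower and 3.03% higher, and all genes 12.4% and 16.1%.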

How the data were processed

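Expression was measured on 6 short-oligonucleotide arrays of biotin-labelled ventricular RNA, 3 caAkt and 3 wild-type. The deposited log2 values were made by the authors with RMA (package affy), per the submitters' processing notes, which corrects background, equalises the arrays' distributions and summarises probes, so a change shared by most genes is not seen. Their versions and the genome build are not given in the sources used here. Probe sets (45101, of which 64 were controls) were named from the platform annotation given for this array.

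The 2 genotypes were tested by lmFit and eBayes of limma 3.58.1, under R 4.3.3 (two-sided, 4 residual degrees of freedom, Benjamini-Hochberg adjustment over all 18193 genes, called under 0.05), without a filter on dim genes. Errors are SDs over 3 arrays for levels and moderated SEs for fold changes. The exact permutation test served for paralogs. Members, gene lists, motifs and the naming rule (every member; from the related list the called genes, up to 8 in each direction by smallest p) were chosen with earlier results of these data known. The limma fit was tested on simulated data, and the other steps were not. Alternatives were other eBayes settings, probe set choices, scalings, weights, a replicate block, a stricter threshold and each array left out. The number of arrays limits the precision.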

Additional observations from a re-analysis of the deposited data

How the results depend on the processing

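Timm21, Timm8b, Samm50, Timm23, Grpel1 and Pmpca stayed lower and called under all alternatives in which they were measured, at an adjusted p of up to 0.036 without single arrays. Of these, Timm21, Timm8b, Timm23 and Grpel1 have 1 probe set each, so the choice of probe set could not change their fold changes. Over the 486 refits of members, 461 kept their side of the threshold, 18 lost a call and 6 gained one. The same limit holds within that count for all 14 members with 1 probe set. In 20 of the 461, over 9 genes called in neither setting, the sign changed. Tomm40l turned to -0.24 with the mean of its probe sets and was called lower there (adjusted p = 0.0139). Counts of lower members ran from 6 to 10 without single arrays or with other probe set choices, weights or filters. They reached 13 after a repeated quantile normalization, which added Timm44, Tomm7, Pam16 and Timm29. In that setting 2710 of all 18193 genes were lower, against 2254 in the main fit. Without single arrays, 1615 to 2222 of all genes were lower and 2369 to 2605 higher. By limma, 0 members were higher at a threshold of 0.01 (2 at an unadjusted p under 0.05), and the count was 0 to 1 without single arrays (0 without wild-type replicate 2 or caAkt replicate 1, with 1 at an unadjusted p under 0.05 in each). Of the genes beside the machinery, 6 were lower and 2 higher with plain probe sets (17 measured), 4 lower at 0.01, and 6 to 10 lower without single arrays. The paralog difference of Tomm40 and Tomm40l was 0.34 with mean probe sets and -0.12 to 0.049 without single arrays, and that of Tomm20 and Tomm20l was -0.048 to 0.26. Without single arrays the other pairs ran from -0.12 to -0.015 (Timm17a and Timm17b), -0.26 to -0.21 (Grpel1 and Grpel2), 0.11 to 0.26 (Timm8a1 and Timm8b) and -0.42 to -0.16 (Mtx1 and Mtx2), and the median over the members from -0.11 to -0.07. The causes of these moves were not tested. With the replicate number as a block, 10 members and 2238 of all 18193 genes were lower, Timm9 being added (adjusted p = 0.0202). Same-numbered arrays correlated at 0.27, 0.03 and -0.12 in their deviations from the group means, and differently numbered arrays at -0.27 to 0.23. With so few arrays these values cannot tell whether the numbers pair them.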
